A study of Mus musculus with 8 samples.

Results

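The proteasome genes of the mouse heart were followed from sham surgery to myocardial infarction, as the 43 protein-coding genes whose symbols are Psma, Psmb, Psmc, Psmd or Psme with a number. A locus of its own, holding no other gene, was found for 39 of the 43, among 35299 loci in all. Psmb10 shared its locus with Slc12a4, Ctrl and Lcat, Psme1 with Dcaf11 and Fitm1, and Psme3 with Aoc2, and no locus matched Psmb11, so these genes have no value here. The members were chosen by name, not by their values.

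Long polyadenylated RNA was sequenced from hearts of C57BL/6J mice aged 12 weeks, 4 given a sham operation (Sham) and 4 a myocardial infarction (MI), in which heart muscle dies behind a blocked coronary artery. The tissue was the border zone, next to the infarct, or its counterpart, 2 weeks after surgery. Neither a transgene nor a drug is named, and the sources used here do not say whether hearts were pooled. The groups follow the titles and the treatment entry. The source entry of the MI samples names Sham instead, and the description calls 3 MI hearts sham infarcts and 1 Sham heart an infarct. The titles of the 4 Sham samples alone carry a remark that they were reanalysed, so the origin of the libraries and the infarction cannot be told apart.

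Libraries held 108 to 190.2 M reads in loci, and every MI library was deeper than every Sham library. Values are normalised reads, meaning reads divided by a factor for each library, and 1 read was worth 0.663 to 1.58 of them. Markers of other cells moved with the groups. Summed over 10 macrophage and monocyte markers, the level was 19847 to 27580 in Sham and 35582 to 45567 in MI, and all 10 were called higher. The sum of 9 T and NK cell markers was 177 to 293 in Sham and 416 to 562 in MI, with 7 called higher. B cell markers were called higher for 5 of 6, neutrophil markers for 3 of 3 tested (Elane was at 0 in all Sham libraries), fibroblast markers for 8 of 8 and endothelial markers for 0 of 7. Summed over the 8 fibroblast markers, the level was 107998 to 161994 in libraries titled Sham and 589370 to 913855 in those titled MI. The sum of 6 cardiomyocyte markers was 6487529 to 7575509 in Sham and 4033071 to 5161060 in MI, with 4 called lower, so the labelled tissue carried its defining markers in all 8 libraries. These marker calls are from the deposited normalised reads, where 20.8% of all loci were called higher and 20.1% lower. With libraries scaled to their totals instead, 4 of the 7 endothelial markers were called higher, beside 44.5% of all loci. On that scaling 3 of the 6 cardiomyocyte markers were called lower, beside 7.76% of all loci. The part of this mixture of cells in the proteasome values was not tested. In bulk tissue, fewer cells of a type and less RNA per cell cannot be told apart.

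The proteasome is the protease that degrades proteins tagged with ubiquitin. Its barrel, the 20S core, stacks rings of alpha subunits, which form the gate, around rings of beta subunits, of which Psmb5, Psmb6 and Psmb7 cut the chain. The 19S particle caps the barrel: its Psmc subunits are ATPases that unfold the substrate, and its Psmd subunits bind ubiquitin chains, remove them and hold the cap together. Interferon and immune cells bring in the immunoproteasome, in which Psmb8 replaces Psmb5, Psmb9 replaces Psmb6 and Psmb10 replaces Psmb7, a change known for supplying peptides to MHC class I molecules. In heart muscle the proteasome clears damaged and surplus contractile proteins.

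Promoters of the replaced and replacing subunits are given because the comparison of these pairs is central below. Each window runs from 250 bases before to 50 bases after the gene's start in RefSeq, on build GRCm38.p6, and is printed on the gene's own strand. Capitals mark matches on either strand to TGACNNNGC, the antioxidant response element bound by the Nfe2l family, to GAAA, any 2 bases and GAAA, the core of the interferon-stimulated response element, or to TTCNNNGAA, the gamma-activated site of interferon signalling. The windows are chr14:54617946-54618245 (minus strand) for Psmb5, chr11:70525107-70525406 (plus strand) for Psmb6, chr17:34197945-34198244 (plus strand) for Psmb8 and chr17:34187281-34187580 (minus strand) for Psmb9.
Psmb5: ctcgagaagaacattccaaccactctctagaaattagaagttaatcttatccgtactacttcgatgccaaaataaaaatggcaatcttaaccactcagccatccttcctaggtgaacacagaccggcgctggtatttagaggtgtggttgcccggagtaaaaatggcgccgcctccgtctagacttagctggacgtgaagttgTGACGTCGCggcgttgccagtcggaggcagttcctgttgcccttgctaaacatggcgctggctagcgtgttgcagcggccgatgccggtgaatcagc
Psmb6: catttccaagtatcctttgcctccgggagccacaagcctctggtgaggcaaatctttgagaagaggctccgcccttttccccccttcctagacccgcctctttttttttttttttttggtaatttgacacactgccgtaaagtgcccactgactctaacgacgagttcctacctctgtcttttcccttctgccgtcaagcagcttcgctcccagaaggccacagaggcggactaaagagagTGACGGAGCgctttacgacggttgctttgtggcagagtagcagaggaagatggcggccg
Psmb8: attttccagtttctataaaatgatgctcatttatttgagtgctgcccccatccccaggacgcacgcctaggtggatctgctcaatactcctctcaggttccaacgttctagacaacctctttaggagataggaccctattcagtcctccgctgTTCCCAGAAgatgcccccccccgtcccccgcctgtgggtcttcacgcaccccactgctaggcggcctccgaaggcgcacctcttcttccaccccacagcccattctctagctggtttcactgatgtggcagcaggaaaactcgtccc
Psmb9: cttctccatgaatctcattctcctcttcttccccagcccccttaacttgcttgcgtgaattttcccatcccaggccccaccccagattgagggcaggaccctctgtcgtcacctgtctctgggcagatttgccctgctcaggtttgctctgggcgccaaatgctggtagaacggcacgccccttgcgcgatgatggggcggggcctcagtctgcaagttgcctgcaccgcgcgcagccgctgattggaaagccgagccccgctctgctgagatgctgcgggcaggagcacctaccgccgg

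Both constitutive catalytic subunits shown hold an antioxidant response element, TGACGTCGC in Psmb5 with its first base at position -47 from the start and TGACGGAGC in Psmb6 at -9. Psmb8 holds the gamma-activated site TTCCCAGAA at -97, which matches the pattern on both strands, and Psmb9 holds none of the 3 motifs in this window. Windows were found for 36 of the 43 members (39 windows). The antioxidant response element was in those of 6 genes, the other 4 being Psmc6, Psmd12, Psmd9 and Psme4, beside 12.4% of all 32851 windows. The interferon-stimulated core was in those of Psmb3, Psmd4, Psmd9 and Psme1, beside 3.44% of all windows, and the gamma-activated site in those of Psmb8 and Psmd2, beside 8.30%. CCAAT boxes were in the windows of 14 genes, Psmb9 among them, beside 37.4% of all windows, and the nuclear respiratory factor 1 core (GCGC, any base, TGCGC) in those of 6, beside 4.60%. No motif overlapped another in the 4 printed windows. Such a match is a run of letters, not a bound site.

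On the deposited scaling, 10 of the 39 members were called lower in MI, 0 higher and 29 in neither direction (limma, adjusted p under 0.05). Of all 19186 loci tested, 20.1% were called lower and 20.8% higher. In 10 members, all lower, the MI libraries did not overlap with the Sham libraries, 8 of them among those called, with Psma1 and Psmd1 besides (39.6% of all loci did not overlap, in either direction). With edgeR on the recovered reads 9 members were called, all of them lower. Of the 19186 loci, edgeR called 3649 lower and 4288 higher (41.4% in either direction). The 10 called were the beta subunits Psmb2, Psmb3, Psmb4, Psmb6 and Psmb7, the ATPases Psmc2, Psmc3 and Psmc5, and the cap subunits Psmd2 and Psmd12. The differences were small: the median log2 difference of the members was -0.19, beside -0.02 over all loci, and 35 of the 39 were negative. These directions belong to the scaling: with libraries scaled to their totals, 16 members were called higher (background 44.5%) and 0 lower (background 7.76%), and the median of the members was 0.12 beside 0.29 over all loci. That scaling moved the median of all loci by 0.31. With totals outside the mitochondrial chromosome 3 members were called higher (background 33.2%) and 0 lower (background 11.1%). Upper-quartile scaling called 21 members lower (background 25.1%), TMM scaling 9 (19.1%), no filter on low values 9 (12.9%), a minimum mean of 50 gave 11 (24.1%) and DESeq2 14 (21.5%). In both scalings the members' median lay under that of all loci.

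Of the 4 structural beta subunits, 3 were called lower on the deposited scaling (20.1% of all loci) and none with library totals (7.76%). There Psmb1 was called higher, as were 44.5% of all loci. Psmb2 had 8882, 7685, 9478 and 7723 normalised reads in the Sham libraries (replicates 1 to 4) and 5906, 6557, 6818 and 7181 in MI. All MI libraries were below all Sham libraries, and the mean went from 8442 ± 887 to 6616 ± 538 (SD, n = 4), a log2 difference of -0.35 ± 0.09 (SE; limma adjusted p = 0.0105). Scaled to library totals, it was -0.04 and not called. The loci of Psmb2 and Psmb1 run more than 1.5 times the annotated exon length, so their values can hold reads from outside it. Psmb4 (log2 difference -0.27, adjusted p = 0.027) and Psmb3 (-0.25, adjusted p = 0.0488) were also called lower, and Psmb1 was not (-0.09, adjusted p = 0.483). The group median of these 4 was -0.26 on the deposited scaling and turned to 0.05 with library totals. The call of Psmb4 was lost without Sham replicate 1, Sham replicate 3 or MI replicate 1, that of Psmb3 on leaving out any library but Sham replicate 2, and with edgeR 2 of the 4 were called lower.

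Among the catalytic subunits, which carry the cutting sites, Psmb7 (trypsin-like) and Psmb6 (caspase-like) were called lower and Psmb5 (chymotrypsin-like) was not. On the deposited scaling 20.1% of all loci were called lower. Psmb7 measured 18748, 16233, 21800 and 17280 in Sham and 12748, 15172, 15038 and 15739 in MI, without overlap (log2 difference -0.33, adjusted p = 0.0234). Psmb6 measured 11295, 9450, 12863 and 10058 in Sham and 7642, 8868, 8984 and 9591 in MI, where MI replicate 4 was above Sham replicate 2 (-0.31 ± 0.11, adjusted p = 0.0363). Psmb5 measured 10620, 9224, 12404 and 10231 in Sham and 7972, 8938, 9080 and 9756 in MI, also with overlap (-0.24, adjusted p = 0.0658). All 3 were highest in Sham replicate 3 and lowest in MI replicate 1. With library totals their log2 differences were -0.02, -0.0029 and 0.06, none called. The Psmb7 call was lost without Sham replicate 1, Sham replicate 3 or MI replicate 1, and the Psmb6 call without any of these or MI replicate 2 or 3.

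None of the 8 alpha subunits, which build the outer rings and the gate, was called, beside 20.1% of all loci lower and 20.8% higher. Their median log2 difference was -0.18 on the deposited scaling and 0.12 with library totals. There 3 of the 8 were called higher, beside 44.5% of all loci. Psma2 had the lowest adjusted p of the 8 (-0.23, adjusted p = 0.0592), with overlapping groups. Psma1 measured 11616, 10718, 13681 and 11232 in Sham and 9152, 10268, 10496 and 10451 in MI (-0.22, adjusted p = 0.0601), without overlap. Psma5 (-0.01, 95% interval -0.22 to 0.20) and Psma3 (-0.02, -0.21 to 0.16) lay nearest to no difference. Psma8, known as the alpha subunit of the testis, was the lowest member, at 112 ± 19.8 in Sham and 93.9 ± 7.22 in MI (adjusted p = 0.276).

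The ATPase ring of the cap had 3 of its 6 subunits called lower, beside 20.1% of all loci. All 6 differences were negative on the deposited scaling, and called and uncalled subunits were not tested against each other. Psmc3 measured 23903, 21463, 27043 and 22819 in Sham and 16793, 19422, 19396 and 20460 in MI, without overlap (-0.32 ± 0.09, adjusted p = 0.0142). Psmc5 (-0.30, adjusted p = 0.0337) and Psmc2 (-0.30, adjusted p = 0.0335) were called lower as well, while Psmc1 (-0.14), Psmc6 (-0.09) and Psmc4 (-0.06) were not. The Psmc2 call was lost without Sham replicate 1 or 3 or MI replicate 1 or 2, and the Psmc5 call without any of these or MI replicate 3. With library totals Psmc2, Psmc3 and Psmc5 lay between -0.02 and 0.01 and were not called, and Psmc1, Psmc4 and Psmc6 were called higher (0.17, 0.25 and 0.22). The median of the 6 turned from -0.22 to 0.09. With library totals 44.5% of all loci were called higher.

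Of 11 non-ATPase cap subunits, Psmd2 and Psmd12 were called lower on the deposited scaling, beside 20.1% of all loci. Psmd2, the large scaffold that receives ubiquitin-like shuttle proteins, measured 36500, 35214, 40601 and 36778 in Sham and 26809, 32156, 31309 and 31749 in MI, without overlap (-0.29 ± 0.08, adjusted p = 0.0138). Psmd12, a lid subunit, had a log2 difference of -0.26 (adjusted p = 0.0346), and its call was lost without Sham replicate 1 or 3 or MI replicate 1 or 2. The scaffold Psmd1 (-0.19, adjusted p = 0.0561) and the ubiquitin receptor Psmd4 (-0.20, adjusted p = 0.104) were not called. On that scaling Psmd8 (0.10, adjusted p = 0.425) and Psmd14 (0.03, adjusted p = 0.839), the deubiquitinase of the lid, were the core subunits with positive values. The median of the 11 was -0.18 on the deposited scaling and 0.13 with library totals. There 5 were called higher, beside 44.5% of all loci, led by Psmd8 (0.40, adjusted p = 0.00182) and Psmd14 (0.33, adjusted p = 0.0033). Psmb2, Psmc3 and Psmd2 kept their calls whichever of the 8 libraries was left out.

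The chaperones of cap assembly, Psmd5, Psmd9 and Psmd10, are not part of the finished particle. They were called in 0 of 3 cases (median -0.05), beside 20.1% of all loci lower and 20.8% higher. With library totals all 3 were called higher, beside 44.5% of all loci, and their median of 0.26 lay under the 0.29 of all loci. Psme2, a subunit of the interferon-inducible activator ring, averaged 5908 ± 638 in Sham and 5090 ± 370 in MI (-0.21, adjusted p = 0.0836). Psme4, an activator that binds the barrel in place of the cap, averaged 70504 ± 5328 and 59287 ± 8523 (-0.26, adjusted p = 0.0765). With library totals the median of Psme2 and Psme4 was 0.07, with neither called. The Psme4 locus, too, runs more than 1.5 times the annotated exon length.

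**Figure D1:**
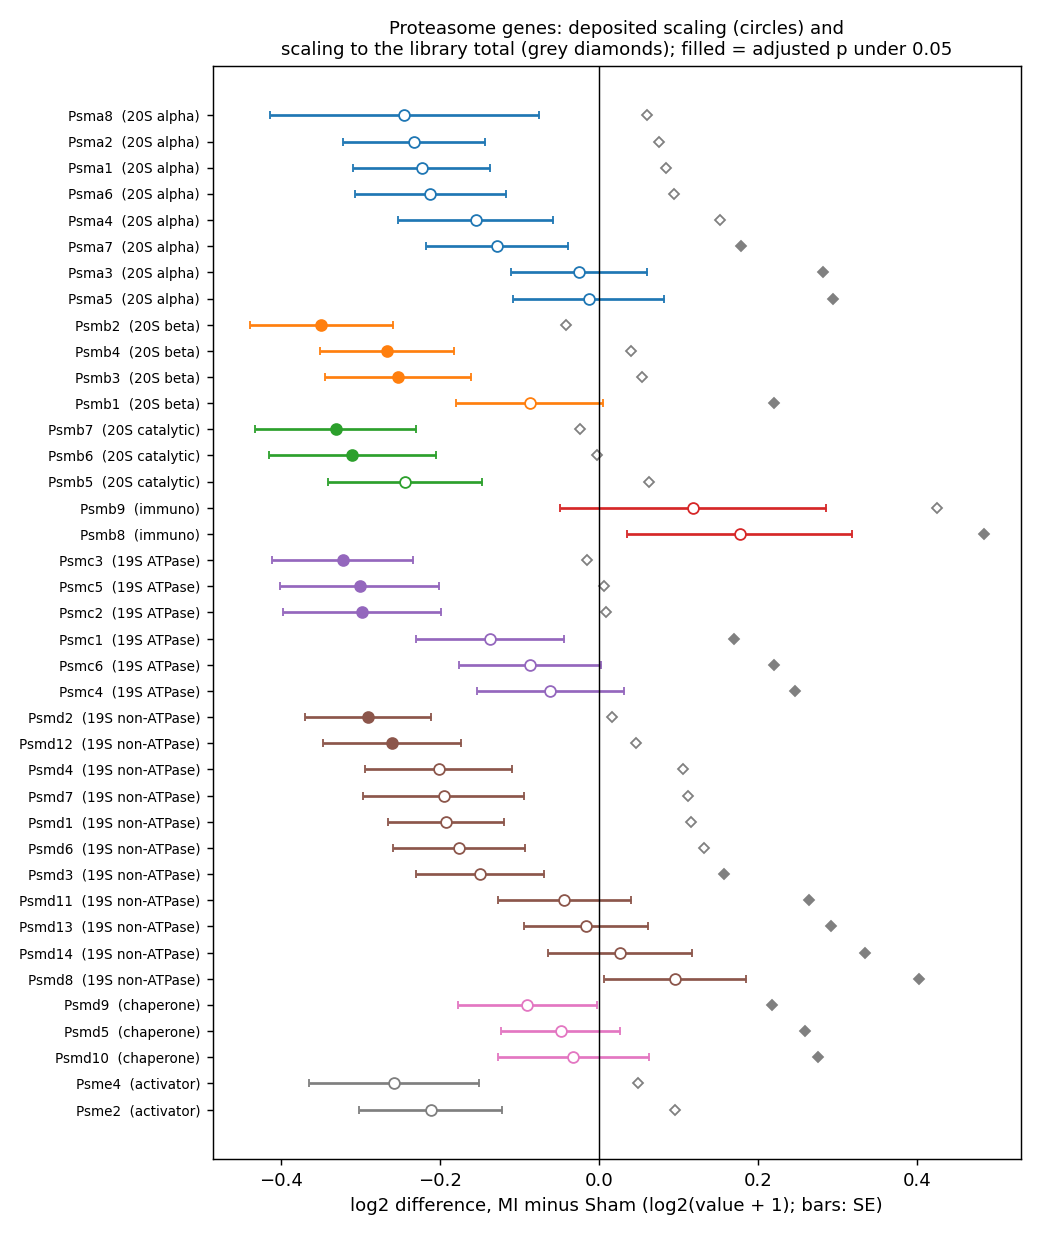
Log2 difference between MI and Sham of the 39 measured proteasome genes by class, with circles and SE bars for the deposited scaling and grey diamonds for scaling to the library total; filled symbols have an adjusted p under 0.05. With the deposited scaling 10 genes were called lower and 0 higher, and with library totals 0 lower and 16 higher. Of all loci, 20.1% were called lower with the deposited scaling and 44.5% higher with library totals.

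On the deposited scaling the immunoproteasome subunits had positive differences that were not called, where most constitutive ones were negative. Psmb8 lies at chr17:34335344-34338211 (plus strand, build mm9) in the MHC region and measured 1557, 1171, 1613 and 1022 in Sham and 1412, 1414, 1589 and 1547 in MI. Its Sham values spanned its MI values, and the mean was 1341 ± 290 and 1491 ± 90.9 (log2 difference 0.18 ± 0.14, 95% interval -0.14 to 0.49, adjusted p = 0.347). Psmb9, at chr17:34319044-34324275 (minus strand), measured 914, 616, 780 and 500 in Sham and 768, 679, 776 and 754 in MI. It likewise overlapped, at 703 ± 182 and 744 ± 44.2 (0.12 ± 0.17, -0.25 to 0.49, adjusted p = 0.607). With library totals the values were 0.48 for Psmb8 (adjusted p = 0.0134, called higher) and 0.43 for Psmb9 (adjusted p = 0.0647). On that scaling the median over all loci was 0.29 and 44.5% of them were called higher.

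A ratio within a library does not depend on its scaling, so each immunoproteasome subunit was set against the subunit it replaces. Per length of exon, Psmb8 stood at 15.4%, 13.4%, 13.7% and 10.5% of Psmb5 in the Sham libraries and at 18.6%, 16.6%, 18.4% and 16.7% in MI. The groups did not overlap, and the mean was 13.2 ± 2.04% in Sham and 17.6 ± 1.08% in MI. The log2 ratio differed by 0.42 ± 0.12 (SE, 1.34-fold; exact permutation test, 2-sided, p = 0.0286, the lowest possible with 4 libraries a group). Adjusted over the 2 ratios tested (Benjamini-Hochberg), that p was 0.0571 and missed the threshold of 0.05. Psmb9 stood at 7.79%, 6.28%, 5.84% and 4.78% of Psmb6 in Sham and at 9.68%, 7.38%, 8.31% and 7.57% in MI. Sham replicate 1 reached into the MI range, and the log2 ratio differed by 0.43 ± 0.17 (1.35-fold; exact permutation p = 0.0857, adjusted 0.0857). On the deposited scaling the log2 differences of Psmb5 (-0.24) and Psmb6 (-0.31) lay below the median of all loci (-0.02). A ratio to either subunit thus rises for a locus at that median as well. How much of each rise is particular to the immunoproteasome subunits was not tested. The immune cell markers given above were higher in the same MI libraries, and their part in the ratios was not tested.

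**Figure D2:**
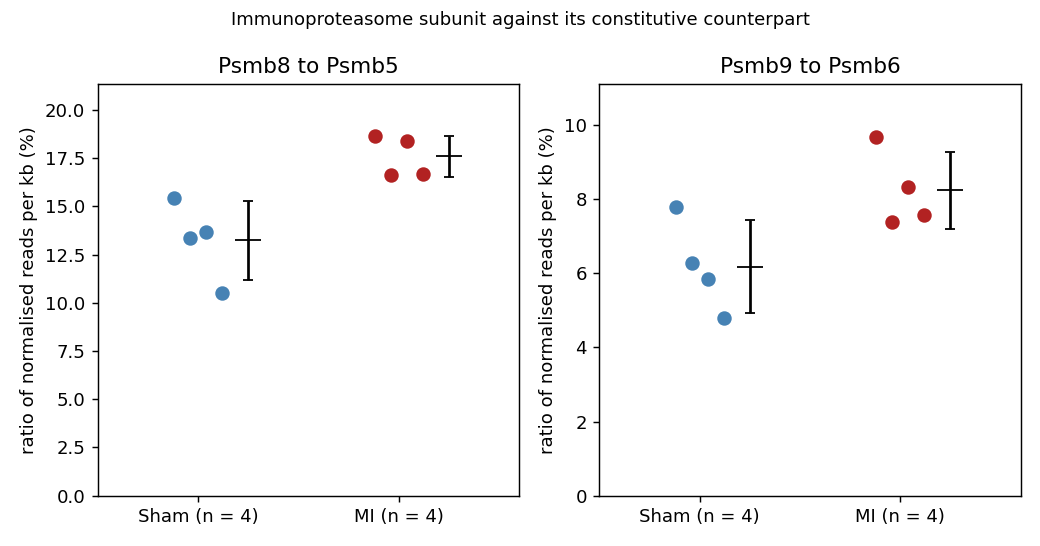
Ratio of Psmb8 to Psmb5 (left) and of Psmb9 to Psmb6 (right) in normalised reads per kb of exon, in percent, with a point for each library and the mean and SD beside them (n = 4 per group). Psmb8 to Psmb5 lies at 10.5% to 15.4% in Sham and 16.6% to 18.6% in MI, and the Psmb9 ratio overlaps between groups.

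The core subunits moved together between libraries. Taking the 31 constitutive subunits of core and cap (without Psma8) as percent of each gene's Sham mean, the median was 101%, 90.4%, 115% and 94.2% in Sham replicates 1 to 4 and 77.7%, 86.9%, 92.4% and 91.6% in MI. Sham replicate 3 was the highest of the 8 libraries for 30 of the 31, and MI replicate 1 the lowest for 28. Without Sham replicate 3, Sham replicate 1 or MI replicate 1, 3 members were called lower in place of 10. Without MI replicate 2, 6 were. These counts come from fits with fewer libraries, and the share of all loci called in those fits is not given here. How much of the fall is particular to the proteasome genes was not tested.

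**Figure D3:**
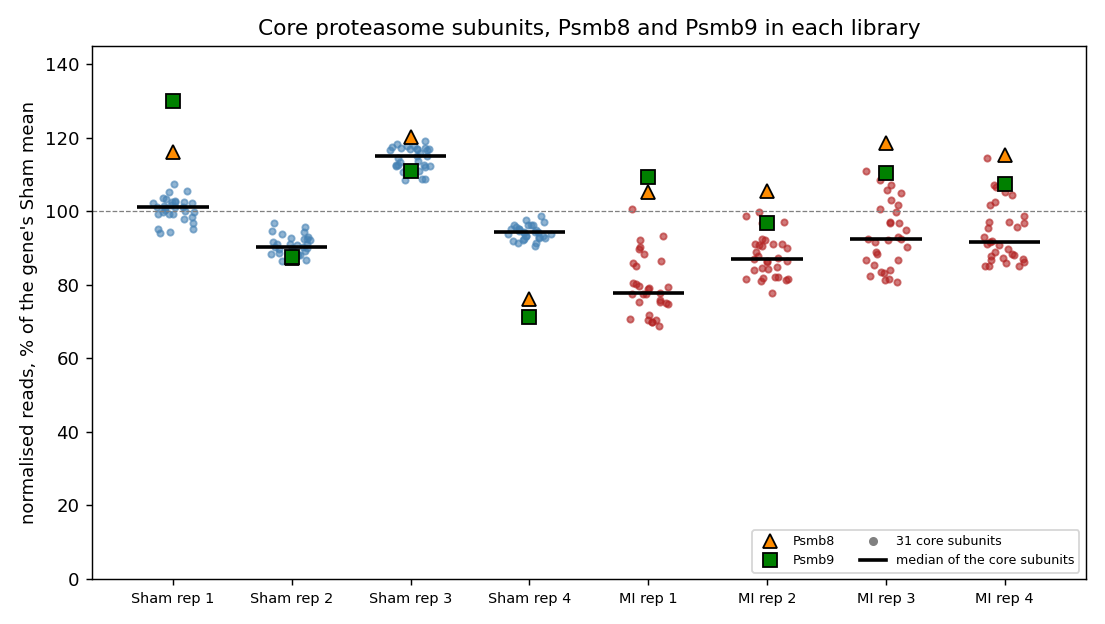
Normalised reads of 31 core proteasome subunits (dots, with their median as a line), Psmb8 (triangle) and Psmb9 (square) in each library, in percent of the gene's mean over the 4 Sham libraries. The median is highest in Sham replicate 3 (115%) and lowest in MI replicate 1 (77.7%).

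To see the subunits against each other, each level was also expressed relative to the median core subunit of its library, on the log2 scale, which removes the scaling of libraries. The differences of the 31 core subunits then ran from -0.23 for Psmb2 to 0.22 for Psmd8. Psmb2 went from -0.41 ± 0.04 to -0.64 ± 0.05 (SD, n = 4), and Psmd8 from -0.01 ± 0.05 to 0.20 ± 0.08, each without overlap. Groups did not overlap for 17 of the 39 members, 4 higher and 13 lower, beside 35.3% of all loci (24.1% higher and 11.2% lower). The reference is made of 31 of these members, which moved together between libraries. Shared variation is thus removed from them more than from other loci, so the share of all loci is not a like background. The 4 were Psmb8 (0.30), Psmd8, the deubiquitinase Psmd14 (0.15) and Psmd13 (0.11). The 13 held all 3 constitutive catalytic subunits, namely Psmb7 (-0.21), Psmb6 (-0.19) and Psmb5 (-0.12), and 3 of the 4 structural beta subunits (Psmb2, Psmb3 and Psmb4). The others were the ATPases Psmc2, Psmc3 and Psmc5, the lid subunit Psmd12, and Psma1, Psma2 and Psma4 of the alpha ring. Psma4 differed by only -0.03. Psmd2 (-0.17) and Psmb9 (0.24) overlapped on this scale. No test was made of these values, as the comparison was chosen after earlier results were seen. A level relative to other subunits shows unequal change only.

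Levels per kb of exon placed Psmb8 and Psmb9 below the constitutive barrel subunits that have such a level, Psma8 aside. The highest Sham means per kb were those of Psmc3 (15271 normalised reads per kb), Psmb4 (15136), Psmb6 (14067), Psma6 (13156), Psmd2 (12424) and Psmb5 (12193). Neighbours in this order lay within their SDs of each other. Psmb8 had 1619 per kb in Sham and 1800 in MI, and Psmb9 872 and 923. The nearest of these barrel subunits was Psma2, with 2689 in Sham and 2281 in MI. Of the 34 genes with a level per kb, only Psmd11 (1312), Psmd10 (868), Psmd9 (601), Psmd5 (364) and Psma8 (49.9) lay below Psmb8 in Sham besides Psmb9. Psma3, Psmb1, Psmb2, Psmd4 and Psme4 were left out, since their loci run more than 1.5 times the annotated exon length. Their values above can hold reads from outside the annotated exons. Psma4, Psma5 and Psme2 overlap exons of loci on the opposite strand, for Psma4 an unnamed locus and for Psme2 151 bases of Rnf31. Whether the libraries kept strand is not given in the sources used here. Psmb5, Psmb6 and Psmb7 have annotated pseudogenes and Psme2 has a near copy, Psme2b, so their reads may be shared.

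**Figure D4:**
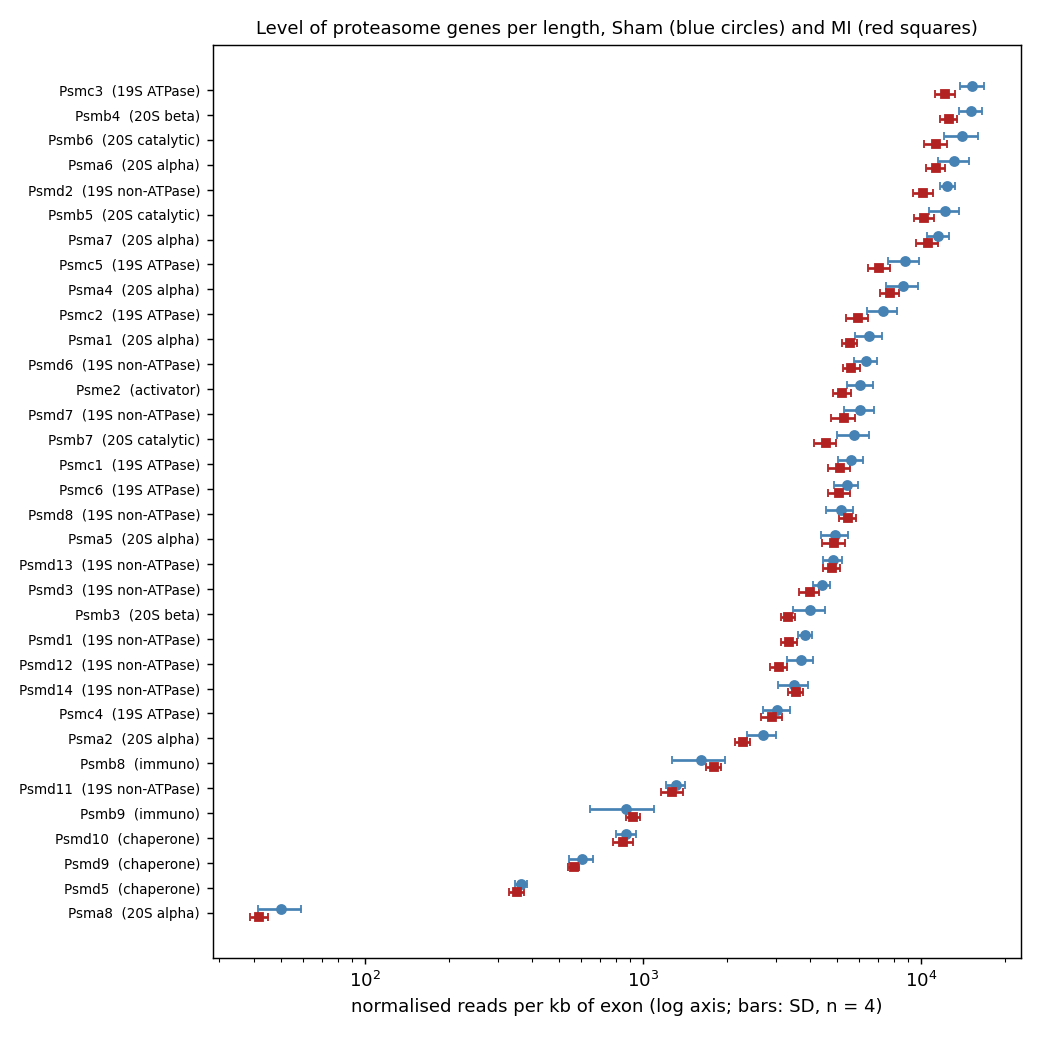
Mean level per kb of exon of 34 proteasome genes in Sham (blue circles) and MI (red squares), with SD bars (n = 4), on a log axis. Psmc3 has the highest Sham mean (15271) and Psma8 the lowest (49.9), with Psmb8 and Psmb9 in the lower range.

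Helpers and inhibitors of the proteasome had 5 of 14 genes called lower and 0 higher, beside 20.1% and 20.8% of all loci. Among them were the adaptor Ecpas (-0.40, adjusted p = 0.00233) and the cap deubiquitinase Uchl5 (-0.35, adjusted p = 0.0185). With library totals 1 was called lower and 4 higher, beside 7.76% and 44.5% of all loci. Among 11 regulators of proteasome gene transcription, 4 were called higher (20.8% of all loci) and 1 lower (20.1%). Nfe2l1, the factor that raises proteasome genes when proteolysis is short, was the latter: 100654 ± 2195 in Sham and 84661 ± 5708 in MI (-0.25, adjusted p = 0.0187). Its relative Nfe2l3 (1.10, adjusted p = 0.0159), the small Maf protein Maff (0.88, adjusted p = 0.0304) and the myeloid interferon regulatory factor Irf8 (0.79, adjusted p = 0.00702) were called higher. The interferon-linked factors Irf1 (0.02, adjusted p = 0.896) and Nlrc5 (0.21, adjusted p = 0.332) were not called. With library totals 8 regulators were called higher (44.5% of all loci) and 0 lower (7.76%).

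In MHC class I antigen processing, which uses immunoproteasome peptides, 2 of 7 genes were called higher and 0 lower, beside 20.8% of all loci higher. B2m, the light chain of class I molecules, averaged 21668 ± 5764 in Sham and 30067 ± 2889 in MI (0.50 on the log2 scale, adjusted p = 0.028), and the disulfide isomerase Pdia3 had a log2 difference of 0.29 (adjusted p = 0.0494). Tap1, a peptide transporter whose locus begins 549 bases from that of Psmb9 on the opposite strand, averaged 1373 ± 245 and 1748 ± 141 (0.36 ± 0.13, adjusted p = 0.0503). Tapbp shares its locus with Rgl2 and has no value. With library totals 4 of the 7 were called higher, beside 44.5% of all loci.

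Upstream of the proteasome, 7 of 9 muscle and heart ubiquitin ligases were called lower (20.1% of all loci) and 0 higher (20.8%). Trim63, which marks thick-filament proteins in atrophy, had a log2 difference of -0.69 (adjusted p = 0.0154), Asb2 -0.65 (adjusted p = 0.00111) and Trim54 -0.54 (adjusted p = 0.00445). With library totals 2 were called lower (7.76% of all loci) and 2 higher (44.5%). Of 12 ubiquitin and ubiquitin-conjugation genes, 1 was called higher, Ube2c of the mitotic machinery (2.04, adjusted p = 0.000285), and 2 lower, among them the conjugating enzyme Ube2d1 (-0.36, adjusted p = 0.00688). With library totals 5 were called higher (44.5% of all loci) and 0 lower (7.76%). Among 8 deubiquitinases and partners of p97, 1 was called lower, Usp5 (-0.21, adjusted p = 0.0194). Library totals gave 4 higher (44.5% of all loci) and 0 lower (7.76%). Autophagy, the other large route of degradation, had 5 of 13 genes called lower and 0 higher. They were led by Map1lc3a (-0.54, adjusted p = 0.00677), Ulk1 (-0.29, adjusted p = 0.0321) and Map1lc3b (-0.28, adjusted p = 0.021). Library totals gave 5 autophagy genes higher (44.5% of all loci) and 0 lower (7.76%). For these lists too, 20.1% of all loci were called lower and 20.8% higher on the deposited scaling.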

How the data were processed

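Per the labels' protocols, poly(A) libraries gave paired reads, 100 bases each, on a HiSeq2000. TopHat2 2.0.5, Cufflinks 2.0.2, HTSeq 0.5.4p2, DESeq and build mm9 are named in the submitters' processing notes. The authors deposited a normalised signal per locus. All values (100.0%) were whole multiples of the library's smallest step (tolerance 1e-06), so reads were recovered.

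Loci were named by exon and intron lengths against GENCODE M21 (GRCm38). Coordinates of loci are mm9, and promoters are RefSeq GRCm38.p6. limma 3.58.1 (R 4.3.3) with an intensity trend was run on log2(value + 1) for the 19186 loci whose mean reached 10, MI against Sham, 2-sided. P-values were adjusted by Benjamini and Hochberg's method over all these loci, with calls at an adjusted p under 0.05. An adjusted p given for a gene is from this fit unless a scaling or tool is named. The pseudocount of 1 understates changes of low genes. Ratios per library were tested by exact permutation. The fit was tested on simulated data. Alternatives were pseudocount, filters, scalings, edgeR 4.0.16 and DESeq2 1.42.0 on recovered reads, a replicate block and leaving out each library. Python 3.11.15 did the rest.

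The named genes were any member and, of each other list, the 3 called genes with the largest difference, besides Nfe2l1, Irf1, Nlrc5, Tap1, B2m and Tapbp. A few genes chosen in this way are not reported here. Members and lists were chosen with earlier results of these data known. Levels relative to the median core subunit, and scaling to the total outside the mitochondrial chromosome, were added after seeing the data. The ratio of Psmb10 to Psmb7 could not be formed, which left 2 of 3 planned ratios. Per the series text the replicates are biological.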

Additional observations from a re-analysis of the deposited data

Results flagged for a closer look

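Of 82 groups of 4 values (39 members and 2 ratios in each condition), 7 had a library far from the other 3, where chance gives about 1 group in 20. Sham replicate 3 was the high value for 5 genes of the barrel and the cap. It had 11245 normalised reads of Psma3 (the others 9066 to 9092), 14383 of Psma6 (11142 to 11478), 14067 of Psmc6 (11501 to 11709), 23915 of Psmd1 (21307 to 21481) and 6355 of Psmd14 (4995 to 5113). MI replicate 1 was the low value for the gate subunit Psma1, at 9152 (the others 10268 to 10496), and for the cap scaffold Psmd2, at 26809 (31309 to 32156). These values share their libraries, so they are not separate events.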

How the results depend on the processing

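The scaling of libraries set the direction of the constitutive subunits. With library totals 16 members were called higher (44.5% of all loci) and 0 lower (7.76%). Totals outside the mitochondrial chromosome (added after seeing the data) gave 3 higher (33.2%) and 0 lower (11.1%). Upper-quartile scaling gave 21 lower (25.1% of all loci), beside 10 on the deposited scaling (20.1% of all loci). With library totals the sign turned, where either value was called, for Psma3 (0.28), Psma5 (0.29), Psma7 (0.18), Psmb1 (0.22), Psmb3 (0.055), Psmb4 (0.040), Psmc1 (0.17), Psmc2 (0.0094), Psmc4 (0.25), Psmc5 (0.0066), Psmc6 (0.22), Psmd2 (0.017), Psmd3 (0.16), Psmd11 (0.26), Psmd12 (0.047), Psmd13 (0.29), Psmd5 (0.26), Psmd9 (0.22) and Psmd10 (0.28). Outside the mitochondrial chromosome it turned for Psmd13 (0.18). TMM scaling (19.1% of all loci lower), edgeR and no filter (12.9%) gave 9 members lower, a mean of at least 50 (24.1%) gave 11 and DESeq2 (21.5%) 14, with 0 higher in each. Leaving out a library gave 3 to 13 lower and 0 higher, without a share of all loci to set beside them. The labels do not say what a replicate number shares. The correlations of same-numbered deviations were 0.146, 0.272, 0.160 and -0.00092, and Sham replicate 1 correlated best with MI replicate 4 (0.284), so the numbers were not taken as a pairing, though the values do not exclude it. A replicate block gave 10 lower, with Psma2 gained (adjusted p = 0.0395) and Psmb3 lost (0.0557). For that fit, too, the share of all loci called is not given here. The Psmb8 to Psmb5 difference under the replicate block was 0.42 with an exact p of 0.125, the smallest that 4 pairs allow. Leaving out a library gave 0.31 to 0.50 for it (exact p = 0.0571 with any 1 MI replicate left out), and 0.31 to 0.55 for Psmb9 to Psmb6, which reached an exact p of 0.0286 without Sham replicate 1. The 17 members without overlap relative to the core became 17 to 22 without a library. Depth bears most on Psma8, with a mean of 93.9 normalised reads in MI. With 4 libraries a group, small differences stay uncertain.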
